A study of Homo sapiens with 24 samples.

Results

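The transcription factor YY1 was knocked down in ACHN cells, an established human renal cancer cell line, and total RNA was sequenced. The 6 libraries described here are those whose labels name the line ACHN and the construct shNC or shYY1, 3 of each, out of 24 libraries in the series. The shNC group carries a control hairpin and the shYY1 group a hairpin against YY1. The labels of the shYY1 group give the genotype as YY1 knockdown and those of both groups give the cell type as ccRCC. The hairpins were expressed from pLKO.1 lentiviral vectors and the cells were selected with puromycin, so both groups share infection and selection. Neither group carries a hairpin against KDM5C, the histone demethylase that the study pairs with YY1. Which of the study's YY1 hairpins was used for RNA sequencing is not given in the labels. Nothing in the labels says that the 3 libraries of a group came from separate infections or cultures, so p-values measure the spread between these libraries, which may be technical. The other 18 libraries are the KDM5C and double knockdowns of ACHN and the same 4 groups in HK2, a line of proximal tubule epithelial cells.

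YY1 is a zinc finger protein that binds DNA near transcription starts and can raise or lower transcription depending on its partners. It works with the INO80 chromatin remodelling complex, was linked to Polycomb repression through its fly counterpart Pleiohomeotic, and helps to hold enhancers and promoters together. Its core recognition sequence holds the letters ATGG, and functional sites often lie just downstream of the transcription start. YY1 is also known for restraining p53 through MDM2.

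The 6 libraries held between 18505041 and 19273176 counted read pairs each, of which 6.88% to 7.40% lay on genes of the mitochondrial genome. Pairs of libraries of the same group differed by a mean chi-square of 1.94 to 2.64 per gene, more than sampling noise, and were treated as separate samples. Levels are given as CPM, counts scaled to library size with edgeR's TMM factors. Of 9 renal epithelial markers, 7 reached 1 CPM in at least 1 library, and PAX8, the renal lineage transcription factor, had 527, 537 and 540.2 CPM in the shNC libraries and 499, 505 and 465 CPM in the shYY1 libraries. None of the 5 blood markers and none of the 4 endothelial markers reached 1 CPM in any of the 6 libraries. Of the 4 fibroblast markers, 2 reached 1 CPM in at least 1 library. The 4 summed to between 575 and 625 CPM in shNC and between 186 and 193 CPM in shYY1. Most of it was COL1A1, a collagen chain, and which cells made it was not tested. COL1A1 had 584, 594 and 544 CPM in the shNC libraries and 159, 157 and 153 CPM in the shYY1 libraries. The fall of COL1A1 was past the threshold (log2 fold change -1.90, standard error 0.032, adjusted p = 1.78e-31). PDGFRB had means of 31.2 CPM in shNC and 34.2 CPM in shYY1, and DCN and COL3A1 were under 0.1 CPM in both groups. CA9, a marker of clear cell renal carcinoma, had means of 0.123 and 0.0351 CPM, close to absent in cells whose labels give ccRCC.

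YY1 itself was examined first. YY1 (ENSG00000100811; GRCh38 chromosome 14, 100238298 to 100282792, plus strand) had 133, 137 and 141 CPM in the shNC libraries and 78.4, 71.9 and 75.8 CPM in the shYY1 libraries. All 3 shYY1 libraries lay below all 3 shNC libraries. The groups lay apart in this way, in one direction or the other, in 9021 of the 16370 genes tested (55.1%). A separation named for a gene here or below is therefore common and is not read as a result of its own. The mean fell from 137 ± 3.91 to 75.4 ± 3.32 CPM (SD, n = 3 each), and edgeR's quasi-likelihood test called it (log2 fold change -0.88, standard error 0.039, adjusted p = 1.65e-19). The message was thus lowered 1.84-fold and remained present. Of its paralogs, YY2 had 1.34, 1.27 and 1.54 CPM in the shNC libraries and 1.78, 1.48 and 1.87 CPM in the shYY1 libraries, and its difference missed the threshold (log2 fold change 0.28, standard error 0.26, adjusted p = 0.395). ZFP42, also called REX1, had a count of 0 in all 6 libraries, which allows up to 3 counts per library.

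KDM5C, a demethylase of histone H3 lysine 4 that the study names as a partner of YY1, had 69.9, 69.8 and 68.9 CPM in the shNC libraries and 87.5, 87.6 and 91.9 CPM in the shYY1 libraries. Its level was higher in every shYY1 library than in any shNC library (log2 fold change 0.34, standard error 0.04, adjusted p = 1.14e-08). KDM5B, a demethylase of the same family, went the other way with 92.1, 94 and 90.9 CPM in the shNC libraries and 69.3, 70 and 73.8 CPM in the shYY1 libraries (log2 fold change -0.40, standard error 0.04, adjusted p = 2.65e-10), and KDM5A had a log2 fold change of -0.16. Among the cell growth and junction genes that the study follows, JAM3, a junctional adhesion molecule, had 41.1, 42.5 and 37.4 CPM in the shNC libraries and 19.2, 18.2 and 18.5 CPM in the shYY1 libraries. The shYY1 libraries lay below the shNC libraries without overlap (log2 fold change -1.13, standard error 0.064, adjusted p = 1.13e-16). KNTC1, a kinetochore protein of the spindle checkpoint, was lower by a smaller amount (log2 fold change -0.33, standard error 0.036, adjusted p = 2.17e-09). Unlike KNTC1, FOXM1, SMC2 and SMC4 were higher. FOXM1, a transcription factor of mitotic genes, had 162, 163 and 162 CPM in the shNC libraries and 210.3, 215 and 215 CPM in the shYY1 libraries (log2 fold change 0.37, standard error 0.031, adjusted p = 2.94e-12). SMC2 and SMC4, the ATPase subunits of condensin, had log2 fold changes of 0.25 and 0.15, both past the threshold. LMNB1, the nuclear lamina protein lamin B1, had 126, 129.7 and 132 CPM in the shNC libraries and 123, 122 and 132 CPM in the shYY1 libraries, and the groups overlapped (log2 fold change -0.06, standard error 0.037, adjusted p = 0.177).

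Across the transcriptome, 16370 genes passed the filter on low counts. At an adjusted p under 0.05, 4017 genes (24.5%) were lower and 3955 (24.2%) higher in shYY1. These shares are the background against which each list of genes below is read. The changes were mostly small: the median absolute log2 fold change among the 7972 called genes was 0.35, and the median over all genes tested was -0.01. Larger changes leaned downward. A log2 fold change of at least 1 was reached by 730 lower and 348 higher genes among those called, and a change of at least 3 by 64 lower and 26 higher genes. At the study's own threshold, a change of 1.5 or more on the log2 scale in either direction with an unadjusted p under 0.05, 365 genes (2.23%) were lower and 148 (0.904%) higher, so that 71.2% of these 513 genes were lower. All 513 also had an adjusted p under 0.05. Of them, 96 lower and 48 higher genes averaged 10 CPM or more in one of the groups. Of 13167 protein-coding genes, 304 were lower and 108 higher at that threshold. Among 1856 long noncoding RNA genes the counts were 39 and 30.

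**Figure D1:**
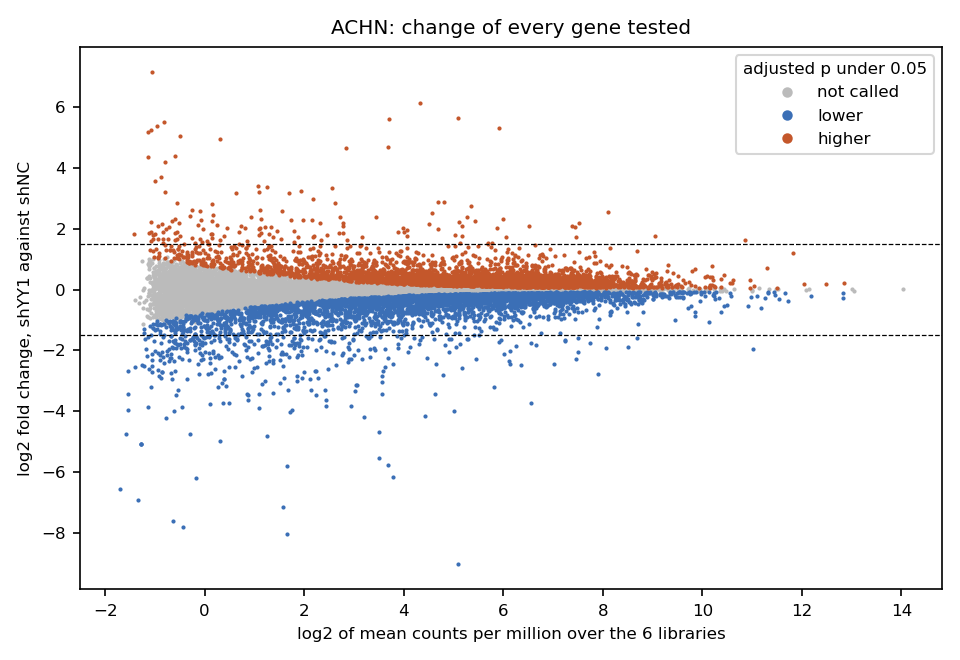
Each point is 1 of the 16370 genes tested; the x axis is the log2 of the mean CPM over the 6 libraries, the y axis the log2 fold change of shYY1 against shNC, the colour marks genes called at an adjusted p under 0.05, and the dashed lines mark 1.5 in each direction. Points below the lower line (365 genes) outnumber those above the upper line (148 genes).

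The largest decreases were close to complete losses of single genes. NRK, a protein kinase (ENSG00000123572; chromosome X, 105822543 to 105958610), had 66.1, 69.7 and 69 CPM in the shNC libraries and 0.0523, 0.159 and 0.165 CPM in the shYY1 libraries. The shYY1 libraries held 7 counts of it together against 3897 in shNC, a ratio of 548 (95% interval 266 to 1364 from counting error). HOXA7, a homeobox transcription factor (ENSG00000122592; chromosome 7, 27153716 to 27157936), had 26.8, 26 and 28.7 CPM in the shNC libraries and 0.366, 0.424 and 0.329 CPM in the shYY1 libraries, 21 counts in the shYY1 libraries together (log2 fold change -6.18, standard error 0.16, adjusted p = 1.4e-26). FOLR1, the folate receptor alpha, had 27.3, 25.1 and 23.7 CPM in the shNC libraries and 0.784, 0.159 and 0.439 CPM in the shYY1 libraries (log2 fold change -5.78, standard error 0.18, adjusted p = 3.74e-24). VAV3, a guanine nucleotide exchange factor, had 20, 23.8 and 23.1 CPM in the shNC libraries and 0.314, 0.795 and 0.329 CPM in the shYY1 libraries (log2 fold change -5.54, standard error 0.18, adjusted p = 1.62e-23). These genes were chosen among those whose groups do not overlap. In each the lowest shNC library lay far above the highest shYY1 library.

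SEMA6A, a membrane-bound semaphorin, fell from 21.9 ± 1.62 to 0.855 ± 0.0997 CPM (log2 fold change -4.69, standard error 0.15, adjusted p = 6.16e-24). PLEK, encoding pleckstrin, fell from 17.5 ± 0.485 to 0.959 ± 0.0842 CPM (log2 fold change -4.20, standard error 0.15, adjusted p = 1.66e-22). CDH13, a cadherin anchored by a lipid tail, had 42.4, 40.6 and 38.8 CPM in the shNC libraries and 2.35, 2.92 and 1.59 CPM in the shYY1 libraries (log2 fold change -4.16, standard error 0.11, adjusted p = 2.34e-26). COL8A1, a short-chain collagen, had 61.8, 59.2 and 60.1 CPM in the shNC libraries and 4.03, 3.23 and 4.22 CPM in the shYY1 libraries (log2 fold change -4.0, standard error 0.08, adjusted p = 1.79e-29). These 8 genes had the largest decreases among called protein-coding genes without overlap between the groups and with at least 10 CPM in shNC. They lie on 8 different chromosomes.

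Among genes with at least 100 CPM in the higher group, NPNT, the integrin ligand nephronectin, had 168, 180.2 and 178 CPM in the shNC libraries and 12.6, 14.4 and 13.3 CPM in the shYY1 libraries. This was a 13.2-fold decrease (log2 fold change -3.73, standard error 0.05, adjusted p = 3.88e-34). FABP3, a fatty acid binding protein, had 103, 99.1 and 103 CPM in the shNC libraries and 10.5, 12.4 and 10.8 CPM in the shYY1 libraries (log2 fold change -3.20, standard error 0.06, adjusted p = 2.61e-30). DYSF, the membrane repair protein dysferlin, had 423, 412 and 409 CPM in the shNC libraries and 59.7, 59.5 and 65.4 CPM in the shYY1 libraries (log2 fold change -2.77, standard error 0.036, adjusted p = 1.41e-34). In these abundant genes the 3 libraries of a group lay close together. TUBA1A, an alpha tubulin whose sequence is close to those of other tubulin genes, had 226, 218 and 215 CPM in the shNC libraries and 35, 47.9 and 39.6 CPM in the shYY1 libraries (log2 fold change -2.45, standard error 0.055, adjusted p = 4.88e-28).

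The largest increases started from almost no message. SLCO2B1, an organic anion transporter (ENSG00000137491; chromosome 11, 75100563 to 75206549), had 0.566, 0.583 and 0.479 CPM in the shNC libraries and 39.7, 42.3 and 37 CPM in the shYY1 libraries (log2 fold change 6.15, standard error 0.13, adjusted p = 1.07e-28). ADAM28, a membrane metalloprotease (ENSG00000042980; chromosome 8, 24294040 to 24359018), had 1.65, 1.01 and 1.22 CPM in the shNC libraries and 67.7, 65.6 and 66.8 CPM in the shYY1 libraries (log2 fold change 5.66, standard error 0.10, adjusted p = 2.14e-31). EPHA5, an ephrin receptor, had 0.36, 0.636 and 0.532 CPM in the shNC libraries and 22.1, 27.1 and 27.2 CPM in the shYY1 libraries (log2 fold change 5.61, standard error 0.17, adjusted p = 1.34e-24). Each was under 2 CPM in every shNC library and above 20 CPM in every shYY1 library.

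The next group of increases held secreted and surface proteins. CD163L1, a scavenger receptor, rose from 1.03 ± 0.117 to 10.7 ± 0.87 CPM (log2 fold change 3.34, standard error 0.17, adjusted p = 1.09e-17). LRRC32, which binds latent TGF-beta on the cell surface, rose from 6.61 ± 0.474 to 49.6 ± 2.31 CPM (log2 fold change 2.88, standard error 0.074, adjusted p = 2.7e-26), and it lies on chromosome 11 at 76657524 to 76670747, in the same region as SLCO2B1. From 70 to 80 Mb of that chromosome, 22.8% of 92 genes were lower and 23.9% higher (median 0.01). FOLR1, among the largest decreases, lies there too. BGN, the matrix proteoglycan biglycan, rose from 6.07 ± 0.819 to 45.5 ± 1.63 CPM (log2 fold change 2.88, standard error 0.08, adjusted p = 1.97e-25). EDN1, the vasoconstrictor endothelin 1, had 1.54, 1.7 and 1.22 CPM in the shNC libraries and 10.3, 12 and 10.3 CPM in the shYY1 libraries (log2 fold change 2.84, standard error 0.16, adjusted p = 1.48e-16). CCL2, the monocyte chemoattractant, had 9.77, 10.9 and 10.9 CPM in the shNC libraries and 68.4, 71.1 and 75.5 CPM in the shYY1 libraries (log2 fold change 2.75, standard error 0.065, adjusted p = 2.88e-27). CD163L1, LRRC32, BGN, EDN1 and CCL2 were named by a rule that takes only called genes whose groups do not overlap.

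Of the abundant genes, MFGE8, a secreted protein that bridges dying cells and phagocytes, had 79.9, 80.1 and 74.2 CPM in the shNC libraries and 474, 466 and 468 CPM in the shYY1 libraries, a 5.93-fold increase (log2 fold change 2.57, standard error 0.033, adjusted p = 1.41e-34). ANKRD1, a common readout of YAP activity, had 20.5, 21.3 and 20.6 CPM in the shNC libraries and 103, 111 and 108 CPM in the shYY1 libraries (log2 fold change 2.34, standard error 0.051, adjusted p = 1.59e-28). The libraries of a group again lay close together. COL16A1, a fibril-associated collagen, had 68.3, 66.4 and 59.8 CPM in the shNC libraries and 299, 314 and 291 CPM in the shYY1 libraries (log2 fold change 2.20, standard error 0.04, adjusted p = 1.48e-30). NID2, the basement membrane protein nidogen 2, had 32.3, 37.1 and 33.7 CPM in the shNC libraries and 151, 156 and 138 CPM in the shYY1 libraries (log2 fold change 2.09, standard error 0.049, adjusted p = 1.57e-27). COL16A1 lies within 1 Mb of FABP3 on chromosome 1 (31652247 to 31704319 and 31365625 to 31376850), and they moved in opposite directions. Each of the 24 genes named above for its change kept its direction and its call under every alternative listed in the methods.

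**Figure D2:**
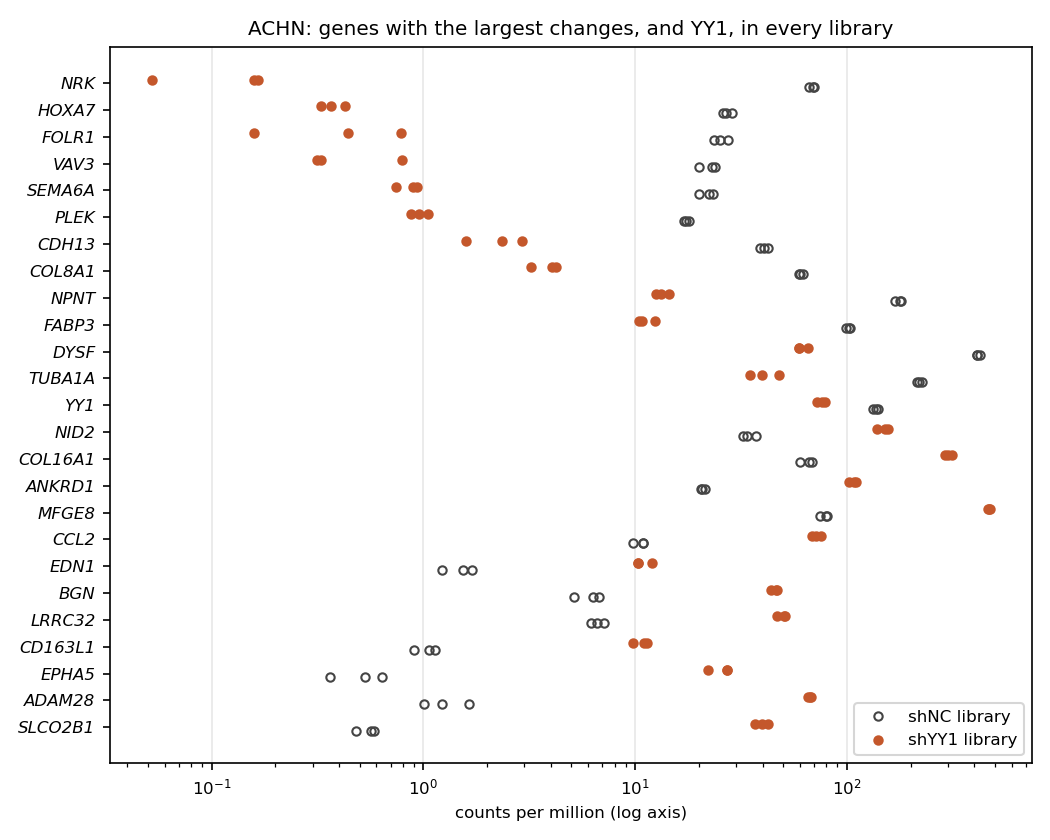
CPM on a log axis for YY1 and the 24 protein-coding genes with the largest changes, 1 point per library, open circles for the 3 shNC and filled circles for the 3 shYY1 libraries. The 24 genes were chosen among called genes whose groups do not overlap, so their separation was set by that choice. YY1, shown beside them, sits in the middle of the order with the smallest distance between its groups (means of 137 and 75.4 CPM).

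Genes were then read in 48 lists of pathways, complexes and cell types, holding 1472 genes. A list is described by how many of its tested members were called lower or higher, beside the 24.5% and 24.2% of all genes. Because chromosomes 7, 8, 13, 17 and 18 stood apart from the others in their median change, the counts were also taken without these 5, an alternative chosen after the data were seen. Parts of other chromosomes were shifted too and remain in these counts. From 120 to 140 Mb of chromosome 9, 49.6% of 260 genes were higher and 7.69% lower (median 0.16). From 240 to 260 Mb of chromosome 1, 44.2% of 43 genes were lower and 9.30% higher (median -0.22).

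**Figure D3:**
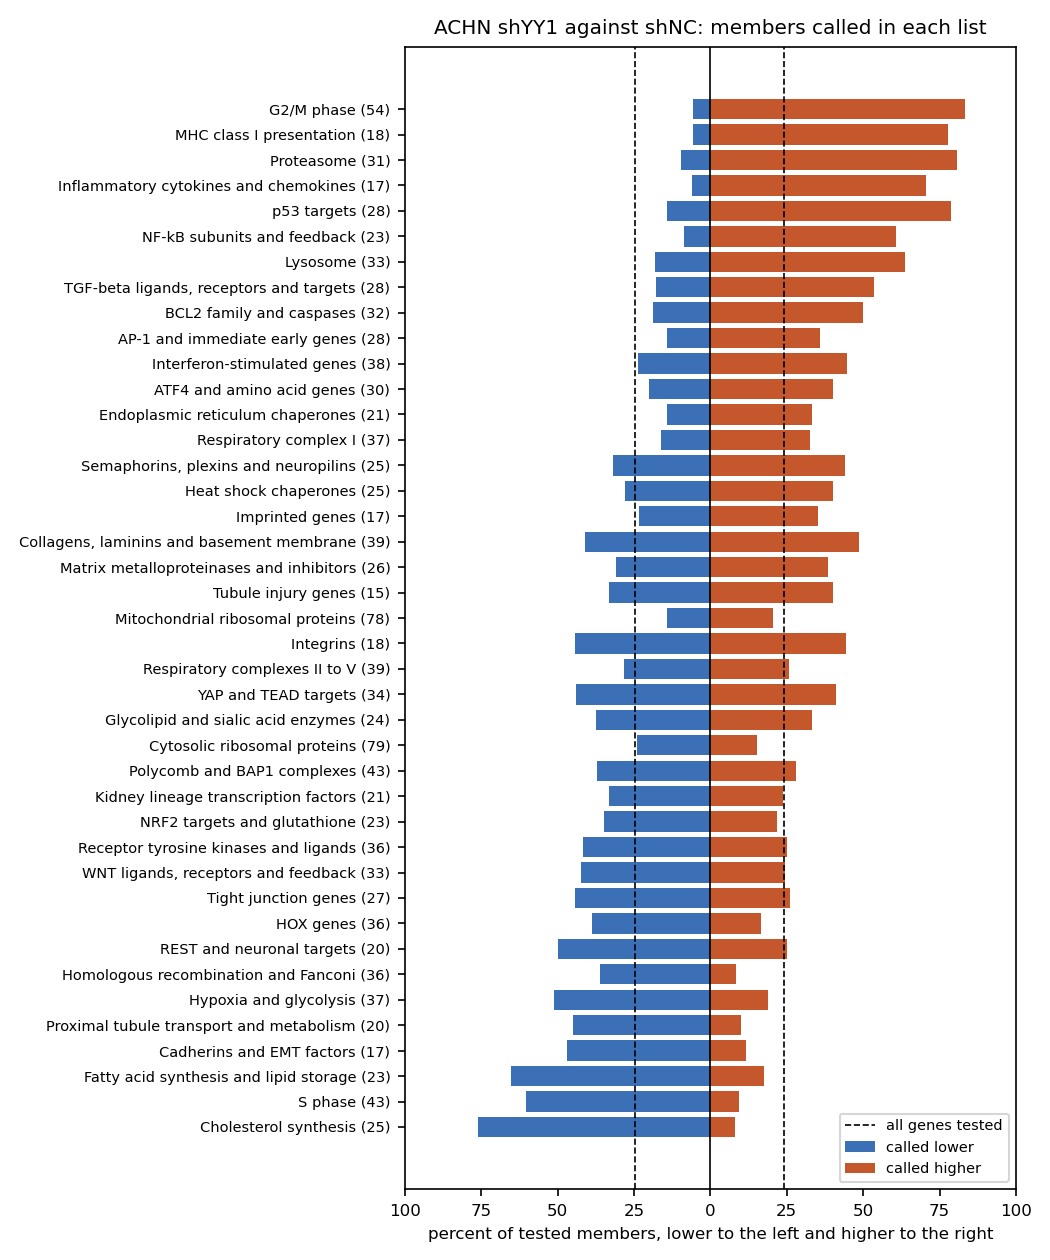
Bars give the percent of tested members called lower (to the left) and higher (to the right) in shYY1 for the lists with at least 15 tested members, whose number stands in brackets; dashed lines mark the shares over all genes, 24.5% and 24.2%. G2/M phase, MHC class I and proteasome genes lie at the top with most members higher, and cholesterol synthesis, S phase and fatty acid genes at the bottom with most members lower.

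Among partners of YY1, the INO80 complex had few called members: 2 lower and 3 higher of 13, median 0.03 (1 lower without shNC replicate 1 or shYY1 replicate 2 or 3). INO80, its ATPase, was higher (log2 fold change 0.35, standard error 0.052, adjusted p = 9.08e-07), and ACTR8, an actin-related subunit, was lower (log2 fold change -0.26, standard error 0.072, adjusted p = 0.00317). In the Polycomb and BAP1 complexes, which place and remove the repressive marks on histones H2A and H3, 16 of 43 tested members were lower and 12 higher, with a median log2 fold change of -0.06. RYBP, named for binding both RING1 and YY1, had the largest decrease, with 85.2, 87.9 and 91.4 CPM in the shNC libraries and 49.9, 49.9 and 44.5 CPM in the shYY1 libraries (log2 fold change -0.89, standard error 0.048, adjusted p = 2.7e-17). RNF2, the ubiquitin ligase of Polycomb complex 1, had 32.6, 32.5 and 32.5 CPM in the shNC libraries and 25, 22.9 and 21.8 CPM in the shYY1 libraries (log2 fold change -0.50, standard error 0.063, adjusted p = 2.93e-08). SUZ12, a core subunit of Polycomb complex 2, was lower too (log2 fold change -0.58, standard error 0.04, adjusted p = 2.32e-14) and lies on chromosome 17. JARID2, an accessory subunit of complex 2, was higher (log2 fold change 0.43, standard error 0.079, adjusted p = 2.23e-05). Without the 5 chromosomes the Polycomb counts were 10 lower and 10 higher of 33. Among cohesin, CTCF and other looping genes the counts were 3 lower and 5 higher of 13, median 0.03. RAD21, a cohesin subunit on chromosome 8, had the largest increase of that list (log2 fold change 0.47, standard error 0.029, adjusted p = 1.44e-15).

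Cell cycle genes split by phase. Of the G2/M phase genes, 3 of 54 tested members were lower and 45 higher, with a median log2 fold change of 0.25. CKS2, a partner of cyclin-dependent kinases, had 77.6, 75.8 and 70.3 CPM in the shNC libraries and 112, 102 and 119 CPM in the shYY1 libraries (log2 fold change 0.55, standard error 0.046, adjusted p = 3.23e-12). CKAP2L, a spindle protein, and CENPA, the histone of the centromere, had log2 fold changes of 0.50 and 0.48. The largest decrease was that of LBR, the lamin B receptor of the inner nuclear membrane, with 205, 202 and 208 CPM in the shNC libraries and 76.1, 80.9 and 75.8 CPM in the shYY1 libraries (log2 fold change -1.42, standard error 0.036, adjusted p = 1.39e-26). NDC80, a kinetochore protein encoded in the first 20 Mb of chromosome 18, was also lower (log2 fold change -0.50, standard error 0.081, adjusted p = 2.99e-06). Leaving out the 5 chromosomes gave 2 lower and 39 higher of 45.

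Of the S phase genes, 26 of 43 tested members were lower and 4 higher, with a median log2 fold change of -0.18. CDC6, which loads the replicative helicase, had 94.3, 93 and 97.9 CPM in the shNC libraries and 54.6, 52.5 and 50.8 CPM in the shYY1 libraries (log2 fold change -0.87, standard error 0.043, adjusted p = 3.28e-18) and lies on chromosome 17. PRIM1, the catalytic subunit of primase, was lower (log2 fold change -0.57, standard error 0.082, adjusted p = 4.22e-07), as was the chromatin remodeller HELLS (log2 fold change -0.46, standard error 0.042, adjusted p = 2.28e-11). RRM2, the regulated subunit of ribonucleotide reductase, went against the list with 135, 129 and 141 CPM in the shNC libraries and 191, 186 and 189 CPM in the shYY1 libraries (log2 fold change 0.46, standard error 0.034, adjusted p = 1.7e-13). Without the 5 chromosomes the S phase counts were 22 lower and 3 higher of 35. In genes of homologous recombination and the Fanconi pathway, 13 of 36 tested members were lower and 3 higher, with a median log2 fold change of -0.08. BRCA1, on chromosome 17, had 57.9, 55.5 and 53.7 CPM in the shNC libraries and 36.1, 37.1 and 34.8 CPM in the shYY1 libraries (log2 fold change -0.65, standard error 0.053, adjusted p = 2.08e-12). CHEK2, a checkpoint kinase, was higher (log2 fold change 0.43, standard error 0.08, adjusted p = 2.81e-05). The lower count of that list shrank to 6 lower and 2 higher of 26 without the 5 chromosomes.

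Targets of p53 were higher in most cases: 4 of 28 tested members were lower and 22 higher, with a median log2 fold change of 0.48. CDKN1A, the cyclin-dependent kinase inhibitor p21, had 131, 139 and 128 CPM in the shNC libraries and 274, 284 and 267 CPM in the shYY1 libraries (log2 fold change 1.03, standard error 0.034, adjusted p = 3.27e-23). GDF15, a secreted stress factor, had 65.4, 75.8 and 57 CPM in the shNC libraries and 152, 155 and 149 CPM in the shYY1 libraries (log2 fold change 1.18, standard error 0.053, adjusted p = 2.54e-19). BBC3, the cell death protein PUMA, had 12.3, 13.2 and 11.1 CPM in the shNC libraries and 26, 24.6 and 25.5 CPM in the shYY1 libraries (log2 fold change 1.03, standard error 0.077, adjusted p = 2.42e-13). PPM1D, a phosphatase on chromosome 17 that turns p53 signalling off, was lower (log2 fold change -0.63, standard error 0.06, adjusted p = 6.51e-11), as was the DNA damage sensor XPC (log2 fold change -0.37, standard error 0.042, adjusted p = 3.88e-09). In CDKN1A, GDF15 and BBC3 every shYY1 library lay above every shNC library. Of all genes tested, 55.1% had groups apart in one direction or the other. Outside chromosomes 7, 8, 13, 17 and 18 the p53 counts were 3 lower and 18 higher of 23.

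In the BCL2 family and caspases, 6 of 32 tested members were lower and 16 higher, with a median log2 fold change of 0.07. BCL2 itself, which restrains cell death, had 58.2, 61.2 and 59 CPM in the shNC libraries and 29.2, 29.7 and 29.1 CPM in the shYY1 libraries (log2 fold change -1.04, standard error 0.053, adjusted p = 8.49e-18). CASP9, an initiator caspase, had a log2 fold change of -0.87. Beside BBC3, the death-promoting BMF was higher from a low level (log2 fold change 1.36, standard error 0.26, adjusted p = 4.47e-05), and so was BIRC3, an inhibitor of apoptosis (log2 fold change 0.90, standard error 0.077, adjusted p = 7.42e-12). Both promoters and inhibitors of cell death were thus found in each direction.

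Proteasome subunits were higher almost throughout: 3 of 31 tested members were lower and 25 higher, with a median log2 fold change of 0.33. PSMC2, an ATPase of the base on chromosome 7, had 108, 115 and 120.2 CPM in the shNC libraries and 184, 184 and 198 CPM in the shYY1 libraries (log2 fold change 0.71, standard error 0.038, adjusted p = 3.99e-17). PSMD14, the deubiquitinase of the lid on chromosome 2, had 115, 115 and 119.6 CPM in the shNC libraries and 171, 174 and 172 CPM in the shYY1 libraries (log2 fold change 0.55, standard error 0.033, adjusted p = 1.34e-15). PSMD13, a lid subunit, went the other way, with 81.5, 76.8 and 79.3 CPM in the shNC libraries and 43.7, 41.4 and 41.5 CPM in the shYY1 libraries (log2 fold change -0.93, standard error 0.047, adjusted p = 7.47e-18). Without the 5 chromosomes the counts were 2 lower and 20 higher of 23, with a median of 0.40. Lysosome genes leaned the same way, with 6 lower and 21 higher of 33, median 0.19. CTSB, the protease cathepsin B, had 196, 195 and 195 CPM in the shNC libraries and 293, 295 and 295 CPM in the shYY1 libraries (log2 fold change 0.57, standard error 0.029, adjusted p = 7.76e-18), and ATP6V1H, a subunit of the proton pump, a log2 fold change of 0.64. Both lie on chromosome 8, which was divided, with medians of -0.19 in its first 20 Mb and 0.31 beyond 80 Mb. The windows from 20 to 40, 40 to 60 and 60 to 80 Mb had medians of -0.12, 0.16 and 0.07. The part of position in the rises of CTSB and ATP6V1H was not tested. Outside the 5 chromosomes the lysosome counts were 3 lower and 17 higher of 25.

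Genes of MHC class I presentation showed 1 lower and 14 higher of 18, median 0.17. The size was modest: TAPBP, the chaperone tapasin, had 173, 179.6 and 174 CPM in the shNC libraries and 222, 218 and 222 CPM in the shYY1 libraries (log2 fold change 0.31, standard error 0.031, adjusted p = 2.37e-10), and PSMB10, an immunoproteasome subunit, had the largest increase (log2 fold change 0.61, standard error 0.089, adjusted p = 5.5e-07). HLA-E was the single lower member (log2 fold change -0.13, standard error 0.036, adjusted p = 0.00213). None of this list lies on the 5 chromosomes. Interferon-stimulated genes were mixed, with 9 lower and 17 higher of 38, median 0.12. IFI44 was higher (log2 fold change 1.15, standard error 0.13, adjusted p = 6.86e-09) and IFIT1 lower (log2 fold change -0.69, standard error 0.081, adjusted p = 8.86e-09).

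Inflammatory cytokines and chemokines had the highest median of the 48 lists: 1 of 17 tested members were lower and 12 higher, with a median log2 fold change of 0.90. After CCL2, described above, IL6 had 13.2, 13.3 and 14 CPM in the shNC libraries and 57.2, 62.7 and 56.4 CPM in the shYY1 libraries (log2 fold change 2.10, standard error 0.064, adjusted p = 3.16e-24). CCL20 was higher from a low level (log2 fold change 1.55, standard error 0.38, adjusted p = 0.000786), and CCL28 was the single lower member (log2 fold change -0.61, standard error 0.11, adjusted p = 1.18e-05). Of 28 members, 11 failed the filter on low counts. Feedback genes of NF-kB, the transcription factor of many of these cytokines, had 2 lower and 14 higher of 23, median 0.25. BCL3, an atypical inhibitor protein of the pathway, had 23.7, 25.2 and 23.7 CPM in the shNC libraries and 46.5, 42.6 and 48.1 CPM in the shYY1 libraries (log2 fold change 0.90, standard error 0.06, adjusted p = 1.17e-14), and TNFAIP3, the deubiquitinase A20, a log2 fold change of 0.80. ICAM1, an adhesion molecule, was near the detection limit and lower (log2 fold change -1.52, standard error 0.40, adjusted p = 0.00164). In the AP-1 and immediate early list, JUNB had 39.6, 40.2 and 40.4 CPM in the shNC libraries and 87.2, 86 and 86.4 CPM in the shYY1 libraries (log2 fold change 1.09, standard error 0.045, adjusted p = 2.29e-20), whereas JUN had 117, 115 and 117 CPM in the shNC libraries and 90.8, 85.7 and 86.9 CPM in the shYY1 libraries (log2 fold change -0.43, standard error 0.037, adjusted p = 8.24e-12). That list counted 4 lower and 10 higher of 28, median -0.02.

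Sterol and lipid genes were mostly lower. In cholesterol synthesis and its regulators, 19 of 25 tested members were lower and 2 higher, with a median log2 fold change of -0.32. TM7SF2, an enzyme of late sterol synthesis, had 24.1, 24.4 and 23.9 CPM in the shNC libraries and 14.7, 15.8 and 16.3 CPM in the shYY1 libraries (log2 fold change -0.65, standard error 0.072, adjusted p = 2.21e-09). HSD17B7, which acts in the same part of the pathway, had a log2 fold change of -0.53. SC5D, also a late enzyme, was higher by 0.17. With shNC replicate 2 or 3 or shYY1 replicate 1 or 3 left out, 1 member of the list was called higher. In fatty acid synthesis and lipid storage, 15 of 23 tested members were lower and 4 higher, with a median log2 fold change of -0.38. Beside FABP3, the elongase ELOVL6 had 15.2, 15.1 and 15 CPM in the shNC libraries and 5.02, 5.36 and 5.6 CPM in the shYY1 libraries (log2 fold change -1.52, standard error 0.10, adjusted p = 2.77e-14). SCD, the stearoyl-CoA desaturase and an abundant message in these cells, had 1491, 1479.6 and 1532 CPM in the shNC libraries and 703, 774 and 730.3 CPM in the shYY1 libraries (log2 fold change -1.05, standard error 0.028, adjusted p = 7.29e-26). CPT1A, which brings fatty acids into mitochondria for oxidation, was higher, with 25.3, 24.8 and 24.1 CPM in the shNC libraries and 43.7, 48.6 and 46.6 CPM in the shYY1 libraries (log2 fold change 0.88, standard error 0.058, adjusted p = 9.64e-15). Outside the 5 chromosomes the cholesterol counts were 16 lower and 2 higher of 21 and the fatty acid counts 10 lower and 3 higher of 16.

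In the hypoxia and glycolysis list, 19 of 37 tested members were lower and 7 higher, with a median log2 fold change of -0.09. ENO2, an enolase, had 69.3, 60.2 and 65.2 CPM in the shNC libraries and 34.5, 33.8 and 33.6 CPM in the shYY1 libraries (log2 fold change -0.96, standard error 0.055, adjusted p = 1.84e-16), and PFKFB4, a regulator of glycolysis, a log2 fold change of -0.74. ANGPTL4, a lipase inhibitor, was higher (log2 fold change 1.37, standard error 0.12, adjusted p = 1.23e-11), as was the lactate transporter SLC16A3 (log2 fold change 1.22, standard error 0.12, adjusted p = 1.73e-10). ATF4 and amino acid genes had 6 lower and 12 higher of 30, median 0.04. In that list SLC7A5, a large amino acid transporter, had 1919, 1857 and 1930.5 CPM in the shNC libraries and 3196, 3184 and 3105 CPM in the shYY1 libraries (log2 fold change 0.71, standard error 0.023, adjusted p = 1.76e-23), NUPR1, a stress regulator, rose from 67.7 ± 3.62 to 142 ± 1.43 CPM (1.05), and the hormone STC2 fell from 92.9 ± 3.89 to 28.3 ± 1.83 CPM (-1.73). Genes of NRF2 and glutathione had 8 lower and 5 higher of 23, median -0.01, among them HMOX1, heme oxygenase 1, with 49.4, 50.7 and 49 CPM in the shNC libraries and 105, 106 and 108 CPM in the shYY1 libraries (log2 fold change 1.08, standard error 0.041, adjusted p = 2.03e-21). Endoplasmic reticulum chaperones had 3 lower and 7 higher of 21, median 0.03, with PDIA6 at -0.75 and DNAJB9 at 0.74. Heat shock chaperones had 7 lower and 10 higher of 25, median 0.03 (4 lower without shNC replicate 3), with the small chaperone CRYAB at 1.47 and HSPH1 at -0.28.

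Ribosomal and most respiratory genes lay near the background. Cytosolic ribosomal proteins, whose counts can be shared with pseudogenes, had 19 lower and 12 higher of 79, median 0.00, and the largest changes were small and lay on chromosomes that stood apart: RPL26 and RPL23 of chromosome 17 had log2 fold changes of -0.46 and -0.39, and RPS20 and RPL7 of chromosome 8 had 0.30 and 0.24. With all 12 ACHN libraries in the fit, 7 were lower and 6 higher, and without shNC replicate 1 or shYY1 replicate 2, 19 were higher. Mitochondrial ribosomal proteins had 11 lower and 16 higher of 78, median -0.03, and 5 lower and 13 higher of 61 without the 5 chromosomes. Complex I of the respiratory chain had 6 lower and 12 higher of 37, median 0.07, the other complexes 11 lower and 10 higher of 39, median -0.01, and genes of the mitochondrial genome 3 lower and 1 higher of 13, median 0.02 (4 higher without shNC replicate 3 or shYY1 replicate 1, and 2 without shYY1 replicate 2). CYC1, a subunit of complex III encoded on chromosome 8, had the largest increase of the complexes (log2 fold change 0.59, standard error 0.038, adjusted p = 4.54e-15).

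Matrix genes changed often and in both directions. Of collagens, laminins and basement membrane genes, 16 of 39 tested members were lower and 19 higher, with a median log2 fold change of 0.01. Only 4 of 39 were not called. COL5A2, a chain of a fibril-forming collagen, had 18.9, 22.9 and 20.4 CPM in the shNC libraries and 3.03, 2.76 and 3.07 CPM in the shYY1 libraries (log2 fold change -2.83, standard error 0.12, adjusted p = 1.98e-20), and COL4A6 was lower from a low level (log2 fold change -2.32, standard error 0.23, adjusted p = 2.74e-10), against the rises of COL16A1 and NID2. Integrins had 8 lower and 8 higher of 18, median 0.10. ITGB3, the beta chain of the vitronectin receptor, had 9.26, 8.06 and 8.24 CPM in the shNC libraries and 0.994, 1.11 and 1.32 CPM in the shYY1 libraries (log2 fold change -2.92, standard error 0.18, adjusted p = 1.25e-15), and ITGB4, the laminin-binding beta chain of hemidesmosomes, had 125, 115 and 114 CPM in the shNC libraries and 50.3, 49.6 and 54 CPM in the shYY1 libraries (log2 fold change -1.22, standard error 0.044, adjusted p = 3.7e-22). Both are encoded on chromosome 17. Both chains fell by more than the median of that chromosome. ITGA11, a collagen-binding alpha chain, had 21.3, 21.2 and 21 CPM in the shNC libraries and 57.5, 62.2 and 52.3 CPM in the shYY1 libraries (log2 fold change 1.42, standard error 0.063, adjusted p = 1.6e-19), and ITGB8, which activates latent TGF-beta, was higher (log2 fold change 1.12, standard error 0.064, adjusted p = 2.36e-16). Outside the 5 chromosomes the integrin counts were 5 lower and 7 higher of 14.

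In the list of matrix proteases and their inhibitors (8 lower and 10 higher of 26, median 0.06), PLAU, the urokinase, had 134, 138 and 135 CPM in the shNC libraries and 285, 292 and 287 CPM in the shYY1 libraries (log2 fold change 1.07, standard error 0.031, adjusted p = 8.43e-25). All 3 shYY1 libraries of PLAU lay above all 3 shNC libraries, and 55.1% of all genes tested had groups apart in either direction. ADAMTS9, a protease of proteoglycans, was higher (log2 fold change 1.34, standard error 0.039, adjusted p = 9.44e-25). TGF-beta ligands, receptors and targets leaned upward, with 5 lower and 15 higher of 28, median 0.21. ID3, an inhibitor of helix-loop-helix factors, had 11.5, 11.2 and 13.1 CPM in the shNC libraries and 58.2, 51.9 and 61.5 CPM in the shYY1 libraries (log2 fold change 2.24, standard error 0.072, adjusted p = 1.47e-23), while the ligands TGFB2 and BMP4 were lower, TGFB2 with 157, 161 and 156 CPM in the shNC libraries and 56.5, 63.2 and 60.1 CPM in the shYY1 libraries (log2 fold change -1.42, standard error 0.04, adjusted p = 2.82e-25) and BMP4 with 11, 12 and 11.5 CPM in the shNC libraries and 3.77, 3.29 and 2.41 CPM in the shYY1 libraries (log2 fold change -1.88, standard error 0.14, adjusted p = 1.33e-13). YAP and TEAD targets were split, with 15 lower and 14 higher of 34, median -0.02; beside ANKRD1, AMOTL1, a partner of YAP, had a log2 fold change of -1.0.

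Genes of cell contacts were lower more often than higher. Cadherins and factors of the epithelial-mesenchymal transition had 8 lower and 2 higher of 17, median -0.20. Beside CDH13, EPCAM, an epithelial adhesion molecule, had 21.9, 22.3 and 20.9 CPM in the shNC libraries and 9.52, 10.5 and 9.49 CPM in the shYY1 libraries (log2 fold change -1.16, standard error 0.084, adjusted p = 9.29e-14), whereas CDH2, the neural cadherin, was higher (log2 fold change 0.48, standard error 0.031, adjusted p = 4.51e-15). In tight junction genes, 12 of 27 tested members were lower and 7 higher, with a median log2 fold change of -0.08. OCLN, encoding occludin, had 15, 15.4 and 13.2 CPM in the shNC libraries and 5.6, 6.58 and 4.44 CPM in the shYY1 libraries (log2 fold change -1.41, standard error 0.12, adjusted p = 3.68e-12). CLDN11 and CLDN1, of the claudin family, were higher, CLDN11 with 81.8, 82.2 and 79.5 CPM in the shNC libraries and 278, 271 and 266 CPM in the shYY1 libraries (log2 fold change 1.72, standard error 0.034, adjusted p = 1.17e-29) and CLDN1 with a log2 fold change of 0.88. Keratins had 1 lower and 6 higher of 9, median 0.32, with KRT7 at 7.3, 6.89 and 6.22 CPM in the shNC libraries and 26.1, 24.4 and 26.1 CPM in the shYY1 libraries (log2 fold change 1.89, standard error 0.088, adjusted p = 7.07e-19).

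Kidney genes changed one by one. Of 42 genes for transport and metabolism of the proximal tubule, 20 were tested, and 9 of 20 tested members were lower and 2 higher, with a median log2 fold change of -0.49. This was the lowest median of the 48 lists, and many of its members were low: after FOLR1, the brush border peptidase MME and the scaffold PDZK1 had log2 fold changes of -1.27 and -1.23 from under 4 CPM. GGT1, a brush border enzyme of glutathione breakdown, was higher (log2 fold change 0.50, standard error 0.039, adjusted p = 5.7e-13). Among kidney lineage transcription factors (7 lower and 5 higher of 21, median -0.06), PAX2 had 26.7, 27.7 and 28.5 CPM in the shNC libraries and 87.8, 82.7 and 75.9 CPM in the shYY1 libraries (log2 fold change 1.55, standard error 0.055, adjusted p = 3.47e-22), and POU3F3, a factor of the loop of Henle, had 19.8, 21.2 and 21.2 CPM in the shNC libraries and 3.4, 2.49 and 4.01 CPM in the shYY1 libraries (log2 fold change -2.67, standard error 0.12, adjusted p = 1.5e-19). Tubule injury genes had 5 lower and 6 higher of 15, median 0.09; ITGB6 was higher (0.55), and the secreted osteopontin SPP1 was lower (-0.34).

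Signalling genes also moved gene by gene. WNT ligands, receptors and feedback genes had 14 lower and 8 higher of 33, median -0.02, and 8 lower and 7 higher of 24 without the 5 chromosomes. ROR2, a WNT receptor, had 9.41, 10.6 and 10.6 CPM in the shNC libraries and 1.1, 0.53 and 0.549 CPM in the shYY1 libraries (log2 fold change -3.81, standard error 0.20, adjusted p = 1.56e-17), and the ligand WNT7B had 1.29, 1.17 and 2.02 CPM in the shNC libraries and 8.68, 6.36 and 7.24 CPM in the shYY1 libraries (log2 fold change 2.29, standard error 0.19, adjusted p = 3.84e-12). Receptor tyrosine kinases and their ligands had 15 lower and 9 higher of 36, median -0.14, with the EGF receptor ligand HBEGF at 11.2, 11.2 and 12.1 CPM in the shNC libraries and 3.45, 2.81 and 4.11 CPM in the shYY1 libraries (log2 fold change -1.76, standard error 0.13, adjusted p = 2.75e-13) and the ligand PDGFA higher (log2 fold change 1.05, standard error 0.074, adjusted p = 5.27e-14). Semaphorins, plexins and neuropilins had 8 lower and 11 higher of 25, median -0.03. SEMA5A, an abundant semaphorin on chromosome 5 like SEMA6A, had 292, 287 and 291 CPM in the shNC libraries and 71, 73.5 and 70.5 CPM in the shYY1 libraries (log2 fold change -2.04, standard error 0.034, adjusted p = 9.8e-32), and the receptor PLXND1 was higher (log2 fold change 0.65, standard error 0.043, adjusted p = 1.26e-14). Among IGF binding proteins and pappalysins (5 lower and 4 higher of 12, median -0.04), IGFBP5 had 5.97, 6.84 and 4.57 CPM in the shNC libraries and 0.418, 0.53 and 0.823 CPM in the shYY1 libraries (log2 fold change -3.31, standard error 0.25, adjusted p = 3.3e-13), IGFBP3 was higher (log2 fold change 0.69, standard error 0.03, adjusted p = 5.55e-20), and the protease PAPPA had 5.76, 7.21 and 5.53 CPM in the shNC libraries and 25.8, 27.1 and 23.7 CPM in the shYY1 libraries (log2 fold change 2.03, standard error 0.10, adjusted p = 1.16e-18). Glycolipid and sialic acid enzymes had 9 lower and 8 higher of 24, median -0.04; B4GALNT1, which makes the gangliosides GM2 and GD2, had 31.4, 28.3 and 28.7 CPM in the shNC libraries and 79.5, 84.3 and 73.6 CPM in the shYY1 libraries (log2 fold change 1.41, standard error 0.056, adjusted p = 7.32e-21).

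HOX genes, which specify position along the body and are classic Polycomb targets, had 14 lower and 6 higher of 36, median -0.15. They differed by cluster. In HOXA, on chromosome 7, 4 of 11 tested genes were lower and 3 higher, and the decreases sat next to each other: HOXA5 had 29.1, 28.3 and 31 CPM in the shNC libraries and 16.3, 14.7 and 13.9 CPM in the shYY1 libraries (log2 fold change -1.0, standard error 0.072, adjusted p = 1.05e-13), HOXA6 had 8.28, 8.8 and 9.62 CPM in the shNC libraries and 3.09, 2.97 and 2.08 CPM in the shYY1 libraries (log2 fold change -1.73, standard error 0.15, adjusted p = 1.38e-11), and HOXA7 was nearly lost. HOXA9 had a log2 fold change of -0.44, HOXA10 one of 0.02 (not called) and HOXA11 one of 0.99. In HOXB, on chromosome 17, 8 of 9 tested genes were lower, between -0.33 and -0.92, and none higher. In HOXC 1 of 8 was lower and 3 higher, and in HOXD 1 of 8 was lower. Reads of antisense and overlapping transcripts of these clusters cannot be told apart from HOX reads, because strand was not used in the counting. Without the 5 chromosomes the HOX counts were 2 lower and 3 higher of 16.

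Imprinted genes, expressed from 1 parental copy, had 4 lower and 6 higher of 17, median 0.09. MEG3, a long noncoding RNA of chromosome 14, had 142, 138 and 133 CPM in the shNC libraries and 24.4, 24.9 and 26.8 CPM in the shYY1 libraries (log2 fold change -2.46, standard error 0.046, adjusted p = 2.81e-30). PEG10, a retrotransposon-derived gene of chromosome 7, had 419, 416 and 436 CPM in the shNC libraries and 112, 114 and 117 CPM in the shYY1 libraries (log2 fold change -1.91, standard error 0.032, adjusted p = 1.03e-31), against the upward lean of that chromosome, and MEST, also on chromosome 7, was lower (log2 fold change -1.19, standard error 0.10, adjusted p = 6.62e-12). The 3 were lower in every shYY1 library than in any shNC library, and 55.1% of all genes tested had groups apart in either direction. IGF2, a growth factor, was higher from a low level, with 0.257, 0.265 and 0.372 CPM in the shNC libraries and 2.3, 3.08 and 3.07 CPM in the shYY1 libraries (log2 fold change 3.19, standard error 0.33, adjusted p = 5.76e-10). Among REST and neuronal targets (10 lower and 5 higher of 20, median -0.29), BEX1 had 4.22, 5.62 and 3.99 CPM in the shNC libraries and 0.209, 0.212 and 0.0549 CPM in the shYY1 libraries (log2 fold change -4.81, standard error 0.34, adjusted p = 6.04e-14).

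The promoters of changed genes were searched for a YY1-type motif, the 8 letters AANATGGC or, on the other strand, GCCATNTT (N is any base). RefSeq promoter windows (GRCh38.p14, 250 bases before to 50 after the transcription start) could be matched by symbol to 11475 of the 16370 tested genes. A gene was counted when any of its windows held the motif. The motif was in 339 of 3050 lower genes (11.1%), 374 of 2976 higher genes (12.6%) and 631 of 5449 genes that were not called (11.6%). Over all 35116 windows, each taken singly, the share was 6.58%. That is a share of windows, not of genes, and is not compared with the shares of genes. At the study's fold threshold, 21 of 243 lower genes (8.64%) and 5 of 84 higher genes (5.95%) held it. The median log2 fold change was 0.01 in the 1344 genes with the motif and -0.01 in the 10131 without. The shares past the fold threshold were thus below that of genes not called, and the difference was not tested. A match of letters does not say whether YY1 binds there.

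The motif had a place in the window: 601 of its matches in tested genes (38.6%) began within the 25 bases after the transcription start, against 55 to 121 in each bin of 25 bases before it. Of 34 genes named for their role or their change, 22 had a window, and 3 held the motif. They are shown with the genes past the study's fold threshold whose motif begins in the 25 bases after the start, each as 10 bases, the motif in capitals and 10 bases, in the direction of transcription.

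KDM5C (chrX:53225182-53225209, minus strand): ctgacaaaccAAGATGGCggcggcggcg
SMC4 (chr3:160399535-160399562, plus strand): gagcgacaatAAGATGGCggtgataatc
SMC4 (chr3:160399637-160399664, plus strand): tattttaggcGCCATTTTcgagtgaagg
LMNB1 (chr5:126777029-126777056, plus strand): gggcgtgccgGCCATGTTggggagtgcg
CABLES1 (chr18:23155816-23155843, plus strand): tagcctccagGCCATTTTtcttcctggt
NALF1 (chr13:107867457-107867484, minus strand): ctccaggacgAAGATGGCggcaacttag
RANBP17 (chr5:170862021-170862048, plus strand): gcctcctgggAAGATGGCgctgcacttc
TEX9 (chr15:56365438-56365465, plus strand): gcagtcgccgAAGATGGCggggcgaagt

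In KDM5C the motif began at base 9 after the start, and the message was higher (0.34). In SMC4 it lay at 105 and 3 bases before the start and in LMNB1 at 97 before it, and these genes had log2 fold changes of 0.15 and -0.06, the latter not called. The 4 genes past the fold threshold with the motif in the first 25 transcribed bases were lower, as were 71.2% of all 513 genes past that threshold; of those with the motif anywhere in a window, 21 were lower and 5 higher, so nothing is read from their direction. CABLES1, which binds a cyclin-dependent kinase, fell from 3.84 to 1.01 CPM, or -1.93 on the log2 scale, standard error 0.24, adjusted p = 2.01e-08. NALF1, tied to the sodium leak channel, fell from 3.37 to 0.267 CPM, or -3.64 on the log2 scale, standard error 0.32, adjusted p = 1.04e-11. RANBP17, of the nuclear transport receptor family, fell from 7.84 to 2.77 CPM, or -1.52 on the log2 scale, standard error 0.16, adjusted p = 6.67e-10, and TEX9, a testis-expressed gene, fell from 5 to 1.43 CPM, or -1.81 on the log2 scale, standard error 0.22, adjusted p = 1.71e-08. All 4 were under 8 CPM in shNC.

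**Figure D4:**
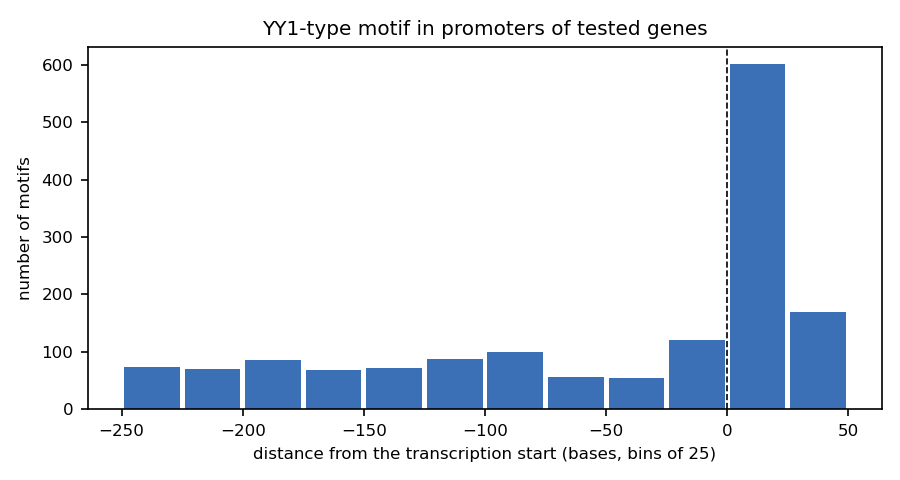
Bars count where the 8-letter YY1-type motif begins, in bins of 25 bases, over the promoter windows of the 11475 tested genes with a window; the dashed line marks the transcription start. The bin just after the start holds 601 motifs and every other bin at most 169.

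Changes were also read by chromosome position as a check. Of 23 chromosomes, 18 had a median log2 fold change within 0.1 of 0. Chromosome 17 was the lowest (median -0.21 over 999 genes; 48.3% lower and 8.71% higher), followed by chromosome 13 (-0.16; 44.8% lower and 9.61% higher) and chromosome 18 (-0.16). Chromosomes 7 (0.16; 11.5% lower and 45.1% higher) and 8 (0.15; 18.8% lower and 41.6% higher) were the highest. These 5 chromosomes hold 18.1% of the tested genes, 22.8% of those called lower, 20% of those called higher and 18.1% of the 513 genes past the study's fold threshold.

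In windows of 20 Mb with at least 20 tested genes, 111 of 155 had a median within 0.1 of 0. The lowest was the first 20 Mb of chromosome 18, with a median of -0.65 over 61 genes, of which 47 (77.0%) were lower and 1 (1.64%) higher. The level of this window, the mean over genes of log2 CPM minus the shNC mean, was -0.65, -0.59 and -0.61 in the shYY1 libraries and 0.02, 0.00 and -0.02 in the shNC libraries. The rest of chromosome 18 had a median of -0.01 over 166 genes. Genes of the window, chosen after their values were seen, included TWSG1, a binding protein of BMP ligands (from 349 to 215 CPM, or -0.72 on the log2 scale, standard error 0.033, adjusted p = 4.86e-19), MYL12A, a myosin light chain (from 227 to 138 CPM, or -0.74 on the log2 scale, standard error 0.034, adjusted p = 3.27e-19), and SMCHD1, a chromatin protein of the SMC family (from 58.9 to 34.8 CPM, or -0.78 on the log2 scale, standard error 0.055, adjusted p = 4.8e-14). EPB41L3, a membrane skeleton protein in the same window, held 359 counts in the shNC libraries together and 1 in the shYY1 libraries, a ratio of 353 (95% interval 63.0 to 13995 from counting error).

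Chromosome 8 was itself divided: beyond 80 Mb the median was 0.31 over 274 genes, of which 168 (61.3%) were higher and 19 (6.93%) lower, and in the first 20 Mb it was -0.19 over 75 genes. The level of the part beyond 80 Mb was 0.25, 0.27 and 0.28 in the shYY1 libraries and between -0.01 and 0.01 in shNC. On chromosome 17 the shYY1 libraries had levels of -0.18, -0.19 and -0.18 with the shNC libraries between -0.01 and 0.01. On chromosome 7 they had 0.14 in each library. In all of these regions the 3 shYY1 libraries lay apart from the 3 shNC libraries. The regions were named for their medians in the same 6 libraries, so this separation is no separate result. The level over all 16370 tested genes was apart too, at -0.02 in each shYY1 library and between -0.0048 and 0.0026 in shNC. In HK2 cells the medians of the same comparison were -0.01 for chromosome 17, 0.05 for chromosome 7, 0.01 for chromosome 8 and 0.00 for the first 20 Mb of chromosome 18. Whether these regional differences go with the YY1 level or with another difference between the shYY1 and the shNC cells cannot be told apart with these groups.

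**Figure D5:**
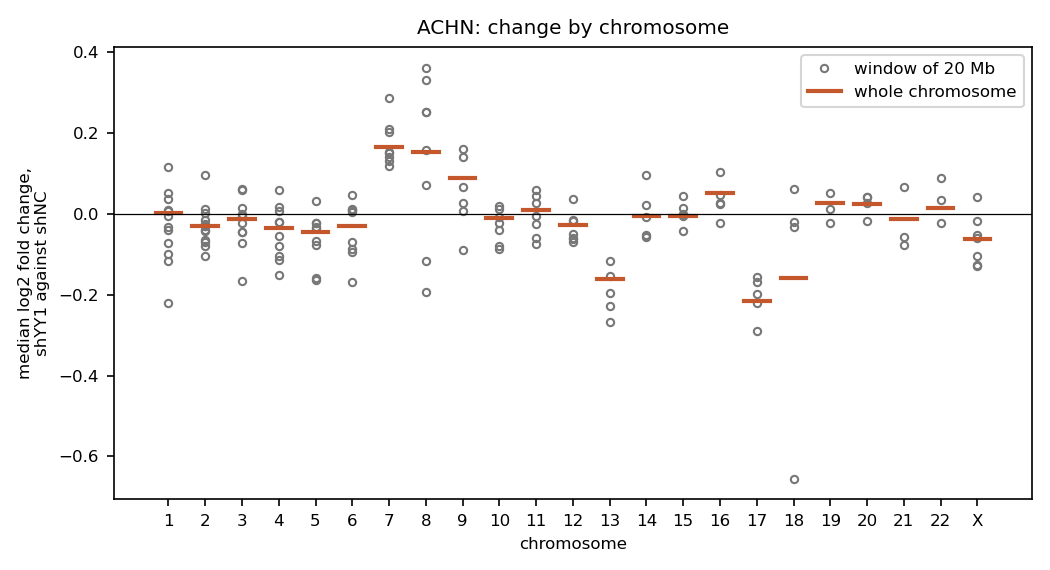
Each circle is the median log2 fold change of shYY1 against shNC over the genes of a window of 20 Mb and each bar the median of the whole chromosome. Chromosomes 13 and 17 lie below 0 throughout, chromosome 7 above it, chromosome 8 on both sides, and 1 window of chromosome 18 at -0.65.

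YY1 knockdown in HK2 cells lowered YY1 further, from 211 to 64.7 CPM (log2 fold change -1.70, difference 0.84, standard error 0.066, adjusted p = 3.52e-11 by edgeR's interaction test). The labels do not give whether both lines carry the same YY1 hairpin. The part of the hairpin and of the YY1 level in the differences below was not tested. In HK2, 2366 of 16071 genes (14.7%) were lower and 2305 (14.3%) higher. The difference between the cell lines, tested with an interaction term over 12 libraries, was called for 2978 genes (16.5% of 18010) that were lower in ACHN relative to HK2 and for 2991 (16.6%) that were higher. Over the 14665 genes tested in both, the log2 fold changes of the lines had a Pearson correlation of 0.07 across genes, which are not independent replicates. Of 3683 genes lower in ACHN, 788 (21.4%) were lower in HK2 and 548 higher. Those 788 were 35.5% of the genes lower in HK2. Of 3693 genes higher in ACHN, 748 (20.3%) were higher in HK2, where they were 33.8%, and 635 were lower.

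KDM5C was higher in both lines, and no difference between them was called (0.34 in ACHN and 0.35 in HK2; difference 0.00, standard error 0.095, adjusted p = 1), and KNTC1 was lower in both (-0.33 and -0.31). JAM3 fell in both and more in ACHN (difference -0.49, standard error 0.11, adjusted p = 0.000688). FOXM1 was higher in ACHN and lower in HK2 (difference 0.58, standard error 0.053, adjusted p = 6.14e-10). Of the largest changes, NRK was nearly lost in ACHN and had a log2 fold change of -0.43 in HK2 (difference -8.60, standard error 0.18, adjusted p = 1.03e-23), and NPNT fell in both (-1.16 in HK2; difference -2.56, standard error 0.071, adjusted p = 3.79e-21). CCL2 rose in ACHN and fell in HK2 (-1.91; difference 4.67, standard error 0.20, adjusted p = 4.11e-17).

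Among the lists, cholesterol synthesis was lower in both lines, with 17 of 25 members lower and 0 higher in HK2 (median -0.24; edgeR, adjusted p under 0.05). G2/M phase genes, higher in ACHN, had 16 lower and 7 higher of 54 in HK2 (median -0.05). Of the p53 targets, 3 were lower and 10 higher of 27 in HK2 (median 0.04), and of the proteasome genes 0 were lower and 14 higher of 31 (median 0.18). Cytosolic ribosomal proteins, near the background in ACHN, had 76 of 79 members higher in HK2 (median 0.51). Differences between the lines were not tested for lists.

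In ACHN the KDM5C knockdown (shKDM5C) and the double knockdown (Dsh) were compared with the same 3 shNC libraries, so the values below share their controls and are set side by side only. YY1 had log2 fold changes of -0.88 in shYY1, 0.06 in shKDM5C and -0.51 in Dsh. NPNT had -3.73, -3.89 and -4.60, and FOLR1 had -5.78, -4.01 and -7.57, in the same order. NRK had -9.04, -0.02 and 0.23, and HOXA7 -6.18, 0.33 and -1.05. ADAM28 had 5.66, -2.96 and -4.21, and BGN 2.88, -2.18 and -3.59. CD163L1 had 3.34, 3.07 and 3.15. The first 20 Mb of chromosome 18 had medians of -0.65, 0.24 and 0.16, and chromosome 7 had 0.16, -0.21 and -0.15. Chromosome 17 had -0.21, 0.03 and 0.15, chromosome 8 had 0.15, -0.09 and -0.13, and chromosome 13 had -0.16, -0.01 and 0.02. Dsh cells also carry a hairpin against YY1 and kept more YY1 message than shYY1 cells. The paper describes making double-knockdown cells by adding a GFP-labelled KDM5C hairpin to cells already depleted of YY1. Whether those were the shYY1 cells sequenced here is not given. The part of the YY1 level and of this origin in these values was not tested.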

How the data were processed

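The authors extracted total RNA with TRIzol, made libraries with the NEBNext Ultra kit, aligned paired-end reads with HISAT2 2.0.5 to hg38 and assigned read pairs to genes with featureCounts (1.5.0-p3 in the submitters' processing notes, 2.0.1 in the file headers; paired, no strand option) on Ensembl release 84. The deposited values are raw counts per gene, without normalization, for 60675 genes, 1 library per table. Symbols were matched by Ensembl identifier for 56558 genes; the other 4117 hold 0.243% of the counts. Without strand, overlapping genes cannot be separated.

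Counts of the 6 ACHN shNC and shYY1 libraries (18505041 to 19273176 read pairs) were tested in R 4.3.3 with edgeR 4.0.16, using TMM factors, its filterByExpr step for low counts, the quasi-likelihood F test and Benjamini-Hochberg adjustment. The study's methods name DESeq2, which was run as an alternative (1.42.0). Standard errors were derived from the F statistic. CPM were scaled within each cell line, and for levels 0.5 CPM was added before the log. Counting intervals (95%) and the floor of 3 counts cover counting error only. In groups of 3 an exact permutation test of a single gene cannot go below p = 0.1, so p-values come from models across genes. A call means an adjusted p under 0.05. The difference between the cell lines was tested with an interaction term over the 12 shNC and shYY1 libraries of ACHN and HK2.

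The genes named are YY1, its paralogs and the study's genes; the 8 lower and 8 higher protein-coding genes with the largest change at a mean of at least 10 CPM, and the 4 and 4 at 100 CPM, called and without overlap; up to 3 lower and 3 higher called members of each list; and the 3 largest differences between the cell lines in each direction. Genes chosen otherwise are said to be, and a few genes that the rule names are not reported here. Members, lists and rules were chosen with earlier results of these data known. Chromosome medians and windows of 20 Mb needed at least 20 tested genes.

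Alternatives were DESeq2, RLE size factors, total counts, no filter, at least 10 counts in each library of either group, all 12 ACHN libraries, the replicate number as a block, unadjusted or adjusted p, windows of 10 Mb, a 7-letter motif and each library left out. The steps were tested on simulated counts. For the ACHN comparison (16126 genes), 96 genes were changed by 1 on the log2 scale and 100 by 2. Of these, 91.7% and 100% were called, and 6.00% of the calls were unchanged genes. For the difference between the lines (17312 genes; 85 and 114 changed) the shares were 68.2%, 90.4% and 5.85%. In the ACHN data 48.7% of genes were called, with a median absolute log2 fold change of 0.35. The simulated shares therefore do not carry over to the reported calls.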

Additional observations from a re-analysis of the deposited data

Results flagged for a closer look

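The results below are named genes whose change in shYY1 against shNC differed between ACHN and HK2 cells by edgeR's interaction test (adjusted p under 0.05). Each value is the log2 fold change in ACHN minus that in HK2. Of 18010 genes, 5969 (33.1%) were called in this test, so a call on a named gene is common, and most of the genes here were picked for a large change in ACHN.

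Among the target and the study's genes, the difference was 0.84 for YY1, which fell less in ACHN, -0.49 for JAM3, 0.24 for SMC2, 0.30 for SMC4 and 0.58 for FOXM1. FOXM1 was higher in shYY1 cells of ACHN and lower in those of HK2, and so was SMC4.

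Of the genes with the largest decreases in ACHN, the difference was -8.60 for NRK, -5.88 for HOXA7, -5.50 for FOLR1, -5.00 for VAV3, -4.91 for SEMA6A, -3.65 for COL8A1, -2.56 for NPNT, -3.09 for FABP3, -2.59 for DYSF and -1.25 for TUBA1A. SEMA6A was higher in HK2 (0.23). NPNT and TUBA1A also fell in HK2 (-1.16 and -1.19). For PLEK and CDH13 no difference was called, and HK2 cells held almost no message of either.

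Of the genes with the largest increases in ACHN, the difference was 7.74 for SLCO2B1, 6.83 for ADAM28, 5.61 for EPHA5, 4.67 for LRRC32, 4.62 for BGN, 2.86 for EDN1, 4.67 for CCL2, 2.34 for MFGE8, 1.75 for ANKRD1, 2.70 for COL16A1 and 1.83 for NID2. SLCO2B1 and ADAM28 had means under 0.3 CPM in both HK2 groups, so their differences depend on the prior count of the fit and are no measure of a response in HK2. LRRC32, BGN, CCL2 and COL16A1 fell in HK2.

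The rule on fitted differences, at a mean of at least 10 CPM in some group, also named NRK, ENSG00000274224 (-7.69) and EPB41L3 (-7.50) in the negative direction, and SLCO2B1, ADAM28 and ITGA11 (5.70) in the positive direction. Their order is not read, since SLCO2B1, ADAM28 and ITGA11 were close to absent in HK2. ENSG00000274224, on an unplaced scaffold, held 514 counts in shNC replicate 1 of ACHN and 2 in each of the other shNC libraries. Without that library its difference was -1.38 (adjusted p = 0.74, edgeR), and it is carried by 1 library. ITGA11 had 0.129 CPM in shNC and 0 in shYY1 cells of HK2. The other 28 differences were called with each of the 12 libraries left out in turn, but some sizes moved. Left-out libraries gave 6.51 (without HK2 shNC replicate 1) to 9.70 (without HK2 shYY1 replicate 2) for SLCO2B1, 6.25 to 11.02 (without HK2 shYY1 replicate 2) for ADAM28, 4.56 (without HK2 shNC replicate 2) to 6.07 for ITGA11, -9.36 (without ACHN shYY1 replicate 3) to -7.04 for EPB41L3 and -6.12 (without ACHN shYY1 replicate 1) to -5.09 for FOLR1.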

How the results depend on the processing

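Under the alternatives, the counts of called genes stayed within 1.5 times those reported, with exceptions given here. Without the filter on low counts, 786 genes were lower and 377 higher at the study's fold threshold, since 32656 genes were then tested. With all 24 libraries in the fit, the difference between ACHN and HK2 was called for 1308 genes lower and 1437 higher in ACHN; the HK2 shKDM5C replicate 1 then in the fit had 11.8% of its counts on mitochondrial genes. DESeq2 called 3317 genes lower and 3450 higher, and without chromosomes 7, 8, 13, 17 and 18 there were 3103 and 3164. With each library left out in turn, 3582 to 3739 genes were lower and 3632 to 3742 higher, 388 to 432 were lower and 155 to 187 higher at the fold threshold, and YY1 had log2 fold changes of -0.91 to -0.84.

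Chromosome medians kept their sign and moved by more than the spread of the libraries in some settings. Chromosome 17 had -0.20 with all 12 ACHN libraries and -0.23 with total counts (left-out libraries -0.22 to -0.20). Chromosome 13 had -0.15 with all 12, -0.13 without the filter and -0.18 with total counts (-0.17 to -0.15). The first 20 Mb of chromosome 18 ranged from -0.64 to -0.57 with libraries left out. Chromosome 7 had 0.17 with DESeq2, 0.17 with RLE, 0.18 with all 12, 0.18 at the minimum of 10 counts, 0.16 without the filter and 0.15 with total counts (0.16 to 0.19). Chromosome 8 had 0.17 with all 12, 0.17 at the minimum of 10 counts, 0.10 without the filter and 0.14 with total counts (0.14 to 0.16). The cause of these shifts was not tested. The 7-letter motif was in 19.4% of lower, 19.3% of higher and 19.2% of uncalled genes, and at the fold threshold in 46 of 243 lower genes (18.9%) and 7 of 84 higher genes (8.33%).

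With the replicate number as a block, 3994 genes were lower and 3933 higher, 367 and 148 at the fold threshold, and YY1 had -0.88. Same-numbered libraries did not deviate together (correlations of 0.00, 0.04 and -0.01), so the number was not taken as a pairing, and not every library correlated best with its own number. Of the named genes' values under the alternatives, 3519 kept direction and call, 81 kept direction and lost the call, and none reversed; PMVK, DNAJC3, MCRS1, NDUFV2 and CLDN7 lost theirs most often. Replicates number 3 per group, which bounds the precision of every standard error.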

Other observations

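Zinc finger genes of the ZNF series on chromosome 19, many of which repress transposons, were looked at after the other values were seen and get no test. Of 161 tested, 43 (26.7%) were lower and 7 (4.35%) higher, against 24.5% and 24.2% of all genes. The share lower was thus near that of all genes, and the share higher was below it. Their median log2 fold change was -0.21, while chromosome 19 as a whole had a median of 0.03 with 15.3% of genes lower and 23.2% higher. The part of chromosome 19 from 20 to 30 Mb, where ZNF714 and ZNF431 lie, had a median of -0.33 over 32 genes, of which 17 (53.1%) were lower and 1 (3.12%) higher. The medians of that part were -0.21 in ACHN shKDM5C and -0.19 in ACHN Dsh, which share the shNC libraries, and 0.06 in HK2 shYY1. The part of position in the change of these genes was not tested. With DESeq2, 28 of them were lower. In HK2 cells 12 were lower and 7 higher. ZNF714 fell from 14.2 to 8.43 CPM, or -0.78 on the log2 scale, standard error 0.10, adjusted p = 7.39e-08 and ZNF431 fell from 16.9 to 11.8 CPM, or -0.54 on the log2 scale, standard error 0.089, adjusted p = 5.3e-06 (edgeR). Most members were low: the changes of single genes rest on few counts, and close copies can share reads.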
